A study of Mus musculus with 6 samples.

Results

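The machinery that fuses and divides mitochondria was followed through 10 genes, chosen by name from the platform's gene symbols, of 18194 genes with a probe set of their own. They are read by 27 of the 45037 probe sets, a probe set being the group of short probes that measures a transcript. Mitochondria join through GTPases: the mitofusins Mfn1 and Mfn2 tether and merge the outer membranes, and Opa1 merges the inner membranes and holds the cristae closed. They divide when the dynamin-related GTPase Dnm1l (Drp1) is drawn to the surface by the receptors Mff, Mief1 (MiD51) and Fis1 and tightens around the organelle, and Mtfr1 is a further fission regulator. Oma1 and Yme1l1 are inner membrane proteases that cut Opa1 into its long and short forms. In brown fat, cold and adrenergic stimuli are known to reshape the mitochondrial network, and Mfn2 and Opa1 have been tied to the capacity for heat production.

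The tissues were interscapular brown fat, which burns lipid for heat, and epididymal white fat, which stores it, from untreated male C57BL/6 mice aged 10 to 12 weeks at ambient temperature. Both tissues were taken from 3 mice, and total RNA of 3 samples per tissue was hybridised, each to its own 1-colour Affymetrix array; the labels do not say which brown and white samples share a mouse. The type of fat and its place in the body cannot be told apart here, and in whole tissue a lower share of cells of a type cannot be told apart from less RNA per cell. Probe sets called present made up 35.6% to 37.5% of the brown arrays and 45.2% to 45.8% of the white arrays, and the median deposited signal was 37.6 to 39.4 against 52.1 to 52.5. Correlations of the normalised log2 signals over tested probe sets were 0.808 to 0.818 between tissues, against 0.959 to 0.965 within brown and 0.981 to 0.983 within white. The actin 3'/5' ratio, a measure of RNA integrity, was highest on brown replicate 2 at 2.24, against 1.19 to 1.73 on the others.

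The direction of every difference rests on the array files. A second deposited table runs the other way: across the tested probe sets its differences correlate with those of the array files at r = -0.87. In the array files the brown adipocyte genes Ucp1 (12942 ± 267 in brown, 26.1 ± 31.7 in white) and Cidea (10697 ± 169 and 42.6 ± 27.2) and the leptin gene Lep (54.2 ± 19.2 and 1743 ± 16.5; means ± SD, n = 3) run as is known for these tissues, and that is why these files were used. Adipoq, the adiponectin gene that both fats express, was somewhat higher in white (-0.47, adjusted p = 2.12e-06), while the adipocyte genes Fabp4 (-0.03) and Pparg (0.11) were not called on their brightest probe sets. The dimmer Fabp4 probe sets were all called higher in white, at -1.46, -1.62 and -0.21. With the sign of the second table turned, all 10 genes have the direction given below. Signals are quantile-normalised intensities on a linear scale, differences are log2, brown minus white, and a probe set is called where its limma adjusted p is under 0.05. Signals of different probe sets cannot be ranked against each other, so levels are compared between tissues only.

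Stretches upstream of the start site are shown for 5 of the genes, all with a marked motif in the stretch. They set a pair higher in brown (Mfn1 and Opa1) beside 3 that were not on their brightest probe sets (Fis1, Yme1l1 and Oma1). Each stretch is the 150 bases before an annotated start, 5′ to 3′ on the gene's strand, from RefSeq on GRCm38.p6. Of the 10 genes 9 matched the table (not Mtfr1). Fis1 has another annotated start, whose 150 bases hold no marked motif. Capitals mark the ETS-type motif CCGGAAG and the NRF1-type motif (GCGCA, any base, GCGC), each searched on both strands, and in these stretches no base fell in both motifs. The stretches are chr3:32529332-32529481, plus strand, chr16:29579184-29579333, plus strand, chr5:136953125-136953274, plus strand, chr2:23156355-23156504, plus strand, and chr4:103313696-103313845, plus strand.
Mfn1: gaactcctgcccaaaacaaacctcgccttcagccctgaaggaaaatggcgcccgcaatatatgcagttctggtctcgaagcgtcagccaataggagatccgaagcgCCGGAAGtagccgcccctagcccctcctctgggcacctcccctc
Opa1: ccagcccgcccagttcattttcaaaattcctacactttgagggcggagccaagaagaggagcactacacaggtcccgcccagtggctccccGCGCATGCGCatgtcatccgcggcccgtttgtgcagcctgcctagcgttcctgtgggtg
Fis1: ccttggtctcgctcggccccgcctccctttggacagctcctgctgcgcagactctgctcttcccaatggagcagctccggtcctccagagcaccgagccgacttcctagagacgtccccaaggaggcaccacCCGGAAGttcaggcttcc
Yme1l1: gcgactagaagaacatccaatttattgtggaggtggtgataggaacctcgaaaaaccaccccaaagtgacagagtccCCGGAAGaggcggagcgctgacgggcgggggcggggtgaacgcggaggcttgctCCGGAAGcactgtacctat
Oma1: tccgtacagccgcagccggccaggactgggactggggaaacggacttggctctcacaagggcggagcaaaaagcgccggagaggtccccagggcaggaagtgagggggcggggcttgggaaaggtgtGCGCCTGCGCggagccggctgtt
Within windows of 250 bases before to 50 after the start, CCGGAAG occurred in 5 of the 9 genes (Dnm1l, Fis1, Mfn1, Mief1 and Yme1l1) against 9.93% of 27025 genes of all kinds in the table. The NRF1-type motif occurred in 2 (Oma1 and Opa1) against 5.19%. The estrogen-related receptor half-site AAGGTCA, searched likewise, occurred in 0 of the 9 against 5.38%. The first motif is in Mfn1 as well as in Fis1 and Yme1l1, and the second in Opa1 as well as in Oma1. Mfn2 and Mff, both called higher in brown, had none of the motifs in the windows of any of their annotated starts. Whether the motifs bear on expression was not tested.

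Most of the machinery was higher in brown fat. On the brightest probe sets the difference was 0.86 to 1.19 for the fusion GTPases and 0.30 to 0.77 for the fission genes that were called. Dimmer probe sets of Mfn1 and Opa1 gave up to 1.84 and 2.61. Fis1 and Oma1 were not called and the probe sets of Yme1l1 disagreed. With 1 probe set per gene, the brightest, 7 of the 10 genes were higher in brown (Mfn1, Mfn2, Opa1, Dnm1l, Mff, Mief1 and Mtfr1), 1 in white (Yme1l1) and 2 were not called (Fis1 and Oma1). Of all 10264 genes tested, 28.2% were called higher in brown and 32.7% higher in white, 61% together, so a call as such is common here. A called difference of at least 2-fold was found for 2 of the 10 (Mfn1 and Mfn2) and for 25.3% of all tested genes. The median difference of the 10 genes was 0.60, against -0.04 over all tested genes. Of the 27 probe sets, 22 passed the filter of 3 present calls among 6 arrays, and 20 were present on every array. Among the 22, brown was called higher for 14, white for 2 and neither for 6, where 24.6% and 29.9% of all 19819 tested probe sets, 54.5% together, were called. Every array of 1 tissue lay above every array of the other for 18 of the 22, and for 62.4% of all tested probe sets. The 5 not tested read Mfn1, Mfn2, Mtfr1 and, with a pair of probe sets, Dnm1l.

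The choice of scaling bears on 6 of these genes. White arrays had the higher deposited signals, and with the deposited scaling the median of all tested probe sets lies at -0.53 rather than -0.06, and of all tested genes 1535 were called in brown and 5760 in white, against 2895 and 3361. There Mfn1, Mfn2, Opa1 and Mff (4 genes) had higher levels in brown fat, Fis1, Oma1 and Yme1l1 (3 genes) in white fat, while Dnm1l, Mief1 and Mtfr1 were not called. Scaling to the spike-in controls gave 3 and 3, with Mff no longer called at 0.26, where 1369 and 5476 of all tested genes were called. What follows is therefore a set of changes relative to the bulk of transcripts.

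**Figure D1:**
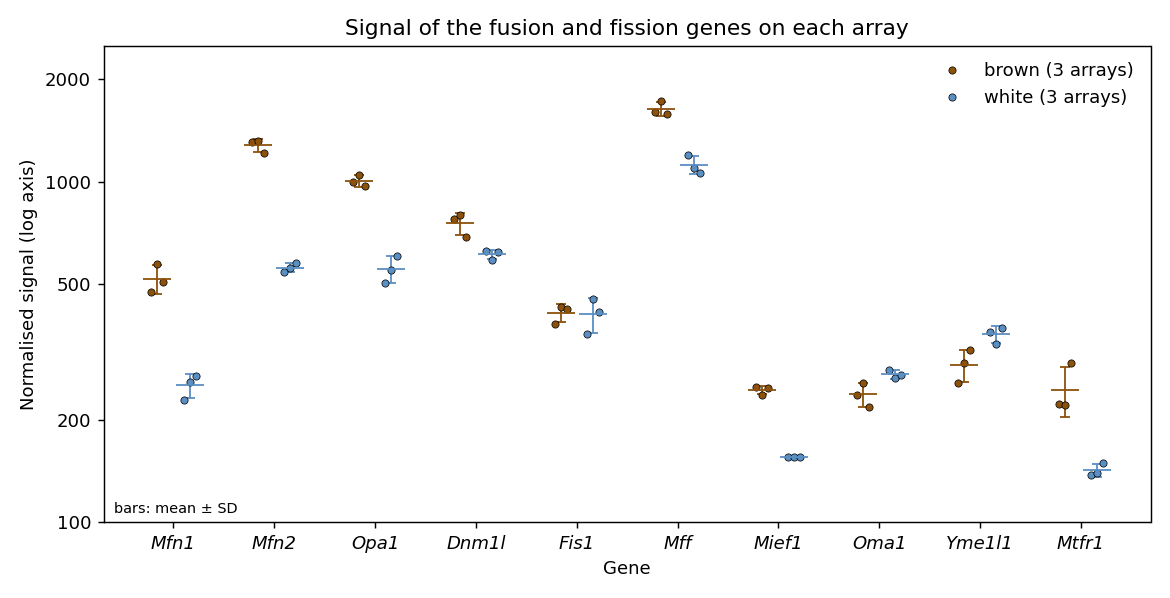
Normalised signal (log axis) of the brightest probe set of each of the 10 genes on the 3 brown and 3 white arrays, with mean ± SD. The arrays of the tissues are far apart for Mfn1, Mfn2 and Opa1 and overlap for Fis1, while Oma1 and Yme1l1 lie slightly higher in white.

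Mfn2, the mitofusin that also links mitochondria to other membranes, had signals of 1306, 1311 and 1215 on the brown arrays and 541, 558 and 576 on the white arrays. Every brown array was above every white array by more than a factor of 2. The difference was 1.19 ± 0.0710 (SE), 2.29-fold (adjusted p = 3.84e-07). A second Mfn2 probe set was dim, at 53.5 ± 22.7 and 39.3 ± 3.15 (SD, n = 3), was called present on 1 brown and 1 white array, and was not tested.

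Mfn1, its partner in outer membrane fusion, had 472, 571 and 508 in brown against 229, 259 and 269 in white on its brightest probe set. The groups did not overlap, and the difference was 1.03 ± 0.110 (SE), 2.05-fold (adjusted p = 2.55e-05). A dimmer probe set of Mfn1 gave a larger difference, 1.84 ± 0.143, with 243 ± 6.54 in brown against 68.2 ± 7.73 in white (adjusted p = 2.66e-06). The direction was the same on both, and the size was not settled. The brightest of the Mfn1 probe sets carries the suffix of those that can match more than 1 transcript.

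Opa1 had signals of 997, 1046 and 971 in brown and 505, 550 and 604 in white on its brightest probe set. The lowest brown array was well above the highest white array, and the difference was 0.86 ± 0.0855 (SE), 1.82-fold (adjusted p = 1.54e-05). A second probe set gave 0.98 ± 0.192, while the remaining one, whose suffix marks alternative transcripts of 1 gene, had 492, 426 and 410 in brown against 85.1, 77.1 and 57.5 in white. That probe set differed by 2.61 ± 0.164, 6.11-fold (adjusted p = 5.89e-07), the largest difference among the 22 tested probe sets. Its interval, 2.24 to 2.98, lies above those of the other Opa1 probe sets, 0.67 to 1.06 and 0.55 to 1.41. Opa1 is spliced into several forms, and which of them each probe set reads was not tested.

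These 3 fusion genes stayed higher in brown under all 17 settings tried on the array files. Mfn2 ranged from 0.85 to 1.33 over those settings, Mfn1 from 0.56 to 1.84 and Opa1 from 0.49 to 1.48, with the lower ends of all 3 at spike-in scaling.

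**Figure D2:**
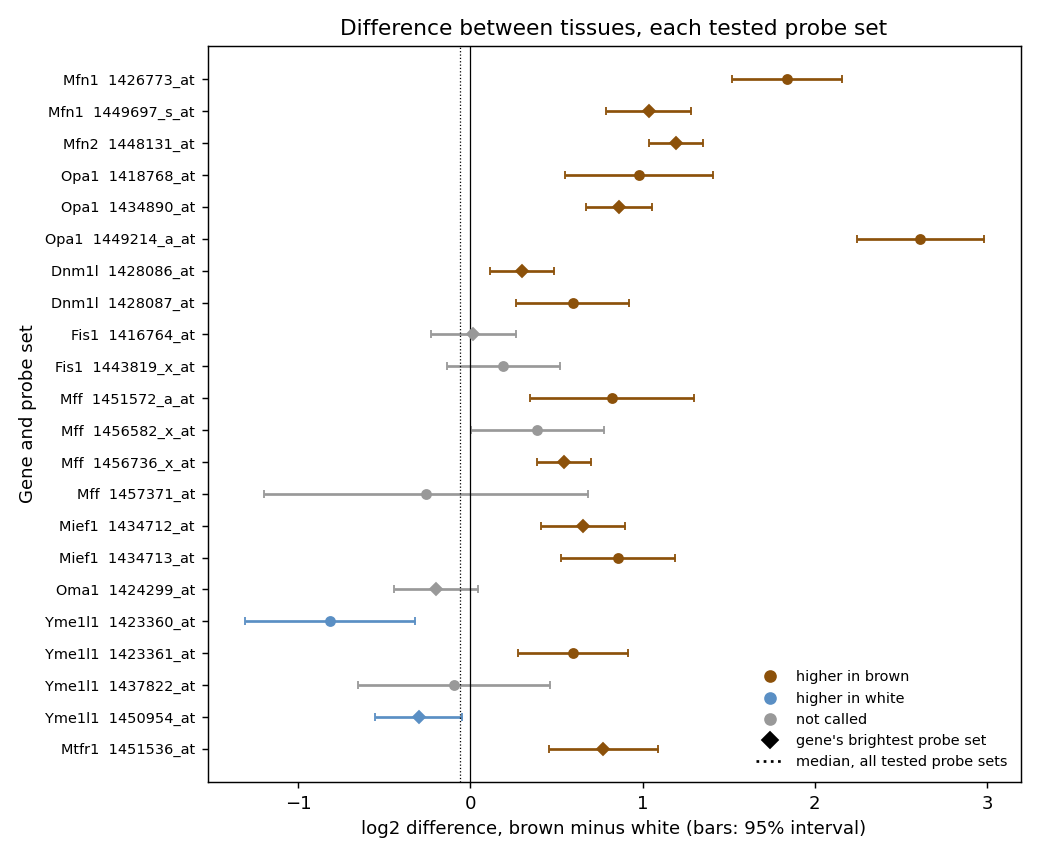
log2 difference between brown and white fat for each of the 22 tested probe sets, with 95% intervals from limma; diamonds mark the brightest probe set of a gene and colours the call. All 6 tested probe sets of Mfn1, Mfn2 and Opa1 lie right of 0, with an Opa1 probe set farthest at 2.61, and the 4 of Yme1l1 lie on both sides.

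Among the fission genes the GTPase itself differed least of those called. Dnm1l had 775, 797 and 689 in brown and 627, 590 and 619 in white on its brightest probe set. The groups did not overlap but lay close, with a difference of 0.30 ± 0.0828 (SE), 1.23-fold (adjusted p = 0.0121). Another Dnm1l probe set gave 0.59 ± 0.147, from 667 ± 126 against 439 ± 52.1. With the deposited scaling the Dnm1l difference was -0.09 (adjusted p = 0.35), so its direction is not settled against total signal.

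Mff, the receptor that recruits Dnm1l to the outer membrane, had 1598, 1720 and 1577 in brown and 1199, 1097 and 1063 in white. All brown arrays were above all white ones, with a difference of 0.54 ± 0.0704 (SE), 1.46-fold (adjusted p = 0.000106). Its 4 probe sets were not alike: 1 more was called higher in brown (0.82 ± 0.213), 1 gave 0.39 with an adjusted p of 0.083, and the dimmest, near 20 signal units, gave -0.26 ± 0.419 (adjusted p = 0.628). Averaged over them Mff gave 0.37 and was not called (adjusted p = 0.053). The brightest Mff probe set and the one at 0.39 carry a suffix of those that can match more than 1 transcript.

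Mief1, a receptor that can also hold Dnm1l inactive, had 249, 236 and 248 in brown and 156, 156 and 155 in white. The white arrays were almost equal and all below brown, with a difference of 0.65 ± 0.108 (SE), 1.57-fold (adjusted p = 0.000595). Its second probe set gave 0.86 ± 0.147 (adjusted p = 0.00072). With the deposited scaling Mief1 was not called (0.12, adjusted p = 0.339).

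Mtfr1 had 223, 220 and 292 in brown and 138, 140 and 149 in white on its 1 tested probe set. Brown replicate 3 was the highest, and all brown arrays were above white, with a difference of 0.77 ± 0.141 (SE), 1.71-fold (adjusted p = 0.0011). It was not called with the deposited scaling (0.24, adjusted p = 0.179).

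Fis1, the small tail-anchored protein first known from yeast fission, had 383, 427 and 423 in brown and 357, 453 and 413 in white. The groups overlapped fully, and the difference was 0.02 with an interval of -0.23 to 0.26 (adjusted p = 0.914). Its other probe set gave 0.19, with an interval of -0.13 to 0.52. A difference of 2-fold lies outside both intervals. With the deposited scaling, Fis1 had a difference of -0.43 and was called in white (adjusted p = 0.00579).

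Neither protease that cuts Opa1 was higher in brown on its brightest probe set, though 1 dimmer probe set of Yme1l1 was. Oma1, the stress-activated one, had 236, 257 and 219 in brown and 280, 265 and 271 in white. Every white array was above every brown one, but the difference of -0.20 ± 0.108 (SE), with an interval of -0.44 to 0.04, was not called (adjusted p = 0.143). With the deposited scaling it was -0.71 and called (adjusted p = 0.00019).

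Yme1l1, the ATP-dependent protease, had 257, 293 and 320 in brown and 362, 333 and 373 in white on its brightest probe set. The groups lay next to each other without overlap, with a difference of -0.30 ± 0.112 (SE), 1.23-fold higher in white (adjusted p = 0.0433). Leaving out 1 array lost the call for 4 of the 6 arrays, with adjusted p values over genes of 0.13 without brown replicate 1, 0.0598 without brown replicate 2, 0.0916 without white replicate 1 and 0.119 without white replicate 3. The call was also lost with no detection filter (0.0545), with no trend in the fit (0.0634) and with a block by replicate number. The Yme1l1 probe sets went against each other. A dim one was higher in white (44.6 ± 7.53 against 78.3 ± 10.1, difference -0.82 ± 0.221, adjusted p = 0.0104), another was higher in brown (139 ± 5.34 against 92.2 ± 6.88, difference 0.60 ± 0.142, adjusted p = 0.00533), and a further one was not called at -0.10. The mean over the 4 was -0.15 (adjusted p = 0.333), so no single direction holds for Yme1l1.

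**Figure D3:**
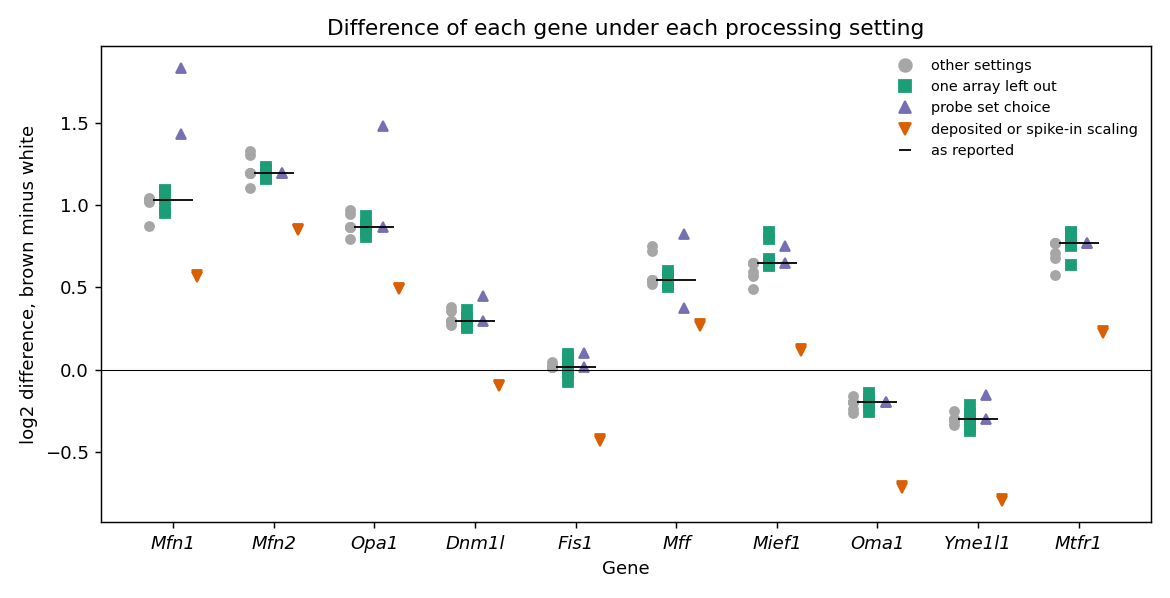
log2 difference of each gene as reported (black line) and under the 17 other settings applied to the array files. Mfn1, Mfn2 and Opa1 lie above 0 throughout, the deposited and spike-in scaling lower every gene, Dnm1l and Fis1 cross 0 there, and Fis1 also does when 1 array is left out.

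Whether members differed unequally between the tissues was asked of 6 pairs, through the log2 ratio of their signals on each array. The ratio of Dnm1l to Opa1 was lower on every brown array, at -0.36, -0.39 and -0.49, than on any white array, at 0.31, 0.10 and 0.04. The ratio thus differed by -0.57, 1.48-fold, between the tissues (exact permutation p = 0.1, two-sided, the smallest that 3 against 3 allows; adjusted over the 6 pairs 0.2). The ratio of Mff to Fis1 differed by 0.53 and that of Opa1 to Mfn2 by -0.33, each with an exact p of 0.1 and no overlap between tissues. With the mean over each gene's probe sets, the ratio of Dnm1l to Opa1 differed by -1.04 and that of Mff to Fis1 by 0.27, and that of Opa1 to Mfn2 turned to 0.29. The remaining pairs overlapped: Mfn2 to Mfn1 differed by 0.16 (exact p = 0.2), Mff to Mief1 by -0.11 (exact p = 0.3) and Oma1 to Yme1l1 by 0.10 (exact p = 0.5). For the mitofusins the sign of the difference depends on the probe set, being -0.64 without probe sets that can match several transcripts.

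The same question was put against mitochondrial genes in general. The reference genes of the outer membrane, Vdac1 to Vdac3 and 4 Tomm import genes, were all higher in brown, 7 of 7, with a median difference of 0.97. Those of the inner membrane and matrix, respiratory chain subunits, ATP synthase and citrate synthase, were higher in brown in 11 of 11 cases with a median of 1.33. With the brightest probe set of each gene, and relative to the mean of the inner list on the same array, all 10 fusion and fission genes were lower in brown without overlap between the tissues, from -0.28 for Mfn2 to -1.77 for Yme1l1. Mfn1 was at -0.43, Opa1 at -0.60, Mtfr1 at -0.70, Mief1 at -0.82, Mff at -0.92, Dnm1l at -1.17, Fis1 at -1.45 and Oma1 at -1.67. Relative to the outer membrane list Mfn2 was higher in brown by 0.25 without overlap, and Mfn1 (0.09), Opa1 (-0.08) and Mtfr1 (-0.17) overlapped. Mief1 (-0.29), Mff (-0.40), Dnm1l (-0.64), Fis1 (-0.93), Oma1 (-1.14) and Yme1l1 (-1.24) were lower there without overlap. Both list means were themselves higher in brown, by 1.47 (inner) and 0.94 (outer), where the median of all tested genes was -0.04. A gene equal in both tissues would thus also be lower against either list. How many of all tested genes were lower without overlap was not counted. Averaged over its probe sets Opa1 differed by 1.48 and Mfn1 by 1.44 between the tissues. The lists differed by 1.47 (inner) and 0.94 (outer), but with only the brightest probe set of each reference gene. The lists were not averaged over probe sets, so the place of Opa1 and Mfn1 on that footing was not tested. These are descriptions on the same 6 arrays and were given no test.

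**Figure D4:**
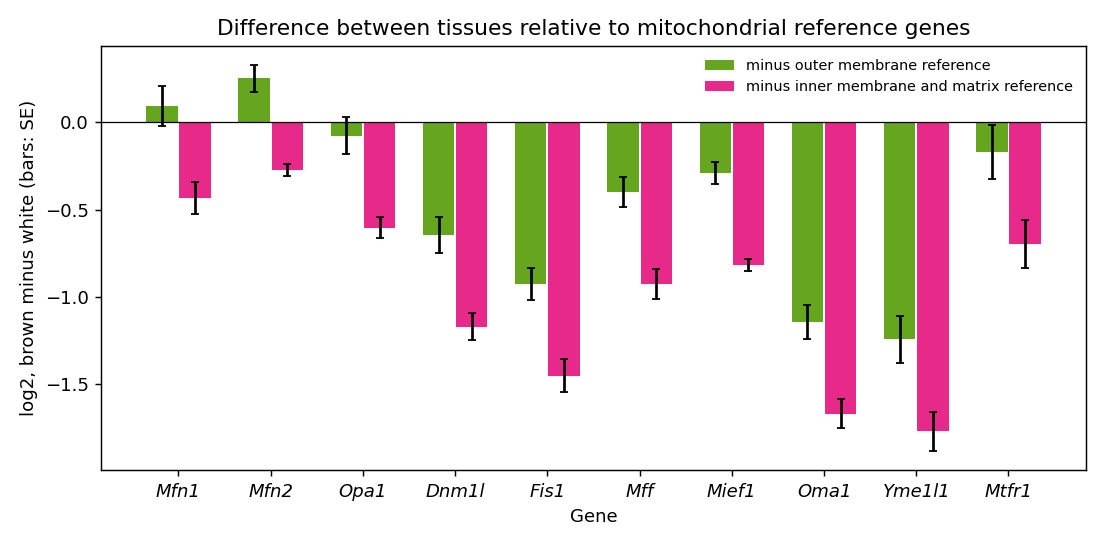
log2 difference between brown and white fat of each gene after subtracting the mean log2 signal of the outer membrane reference genes (green) or of the inner membrane and matrix reference genes (pink) on the same array; bars are standard errors over 3 and 3 arrays. Each gene is shown by its brightest probe set, with which all bars against the inner list lie below 0 and those of Mfn1 and Mfn2 against the outer list above it.

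Of 38 tested genes that work beside this machinery, 28 had their higher level in brown fat and 4 in white fat, and 6 missed the threshold. Their median difference was 1.05. Of all 10264 tested genes 28.2% were called in brown and 32.7% in white, 61% together. These shares stand beside the count of every list below. Adjusted p values in what follows are over all tested genes. Among 5 genes listed here as further fusion genes 4 were higher in brown: Stoml2, a stomatin-like partner of cardiolipin (662 ± 64.5 against 269 ± 20.9, difference 1.30), the mitoguardin Miga2 (1.06), the outer membrane protein Slc25a46 (0.90) and the mitochondrial phospholipase Pld6. Pld6 was called absent on all white arrays, and its difference was 2.73 with an interval of 1.90 to 3.56 (6.63-fold, adjusted p = 0.000125). Miga1, absent on all brown arrays, was higher in white, with a difference of -1.22 and an interval of -2.07 to -0.37 (2.33-fold, adjusted p = 0.0184). Its mean in white was only 35.5, and that call was lost without white replicate 2 or white replicate 3. Pld6 and Miga1 each passed the filter only through the tissue where they were higher. Their intervals, p values and calls, also within the counts above, are therefore no independent support for the direction.

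Of 7 tested further fission genes, 3 were higher in brown. Mtfp1, an inner membrane fission protein, had 663 ± 20.7 against 88.1 ± 11.8, a difference of 2.92 (adjusted p = 3.19e-08). Mief2 (MiD49), the paralogue of Mief1, differed by 1.82 and the actin nucleator Spire1 by 1.11. Inf2, a formin that drives actin onto fission sites, was higher in white (-0.68, adjusted p = 0.000542) on a probe set that can match several transcripts, while its other probe set was not called (-0.26, adjusted p = 0.14). Mtfr1l (-0.08) and the dynamin Dnm2 (-0.22) were among the 3 not called, and Mtfr2 was not tested. A dimmer Mtfr1l probe set was called higher in brown (0.46). The Dnm2 probe set used can match several transcripts and was present on 1 brown and 2 white arrays. Brighter Dnm2 probe sets that did not pass the filter ranged from -0.59 to 0.77. Mief2 thus differed by 1.82 where Mief1 differed by 0.65, a gap that was not tested.

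Regulators of the machinery were higher in brown in 5 of 6 tested cases. Akap1, which anchors protein kinase A at the outer membrane where that kinase restrains Dnm1l, had 1956 ± 11.7 in brown against 505 ± 28.1 in white (1.96, adjusted p = 8.49e-09). The ubiquitin ligases Mul1 (1.40) and Marchf5 (0.57) and the kinase Pink1 (0.84) were also higher in brown. The SUMO protease Senp5 was higher in white (-0.38, adjusted p = 0.0413), a call lost on leaving out any 1 array other than brown replicate 1, and a dimmer Senp5 probe set was higher in brown (0.82). All 7 tested inner membrane and matrix proteases and prohibitin genes were higher in brown, including Afg3l2 (899 ± 55.8 against 222 ± 13.8, difference 2.02), Lonp1 (1.48), Phb2, a prohibitin that shields Opa1 (1.34), and Clpp (1.06). Oma1 and Yme1l1 were not among them, as given above.

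The cristae genes had the highest median of the 6 neighbouring lists. Of 8 genes of the MICOS complex, which shapes the cristae junctions, and its outer membrane partner Samm50, 7 were higher in brown with a median of 1.65. Chchd3 had 2780 ± 99.7 in brown against 504 ± 47.6 in white (2.47, adjusted p = 5.41e-09), Apoo differed by 2.44, Samm50 by 1.93 and Immt, the central scaffold, by 1.70, while Chchd6 was not called (0.19, adjusted p = 0.13). Of 5 genes that move mitochondria along microtubules, the Miro GTPase genes Rhot2 (1.90) and Rhot1 (0.52) were higher in brown, the kinesin heavy chain gene Kif5b was higher in white (-0.35), and the adaptors Trak1 (0.06) and Trak2 (0.22) were not called. With the deposited scaling these 5 gave 1 call in brown and 2 in white.

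**Figure D5:**
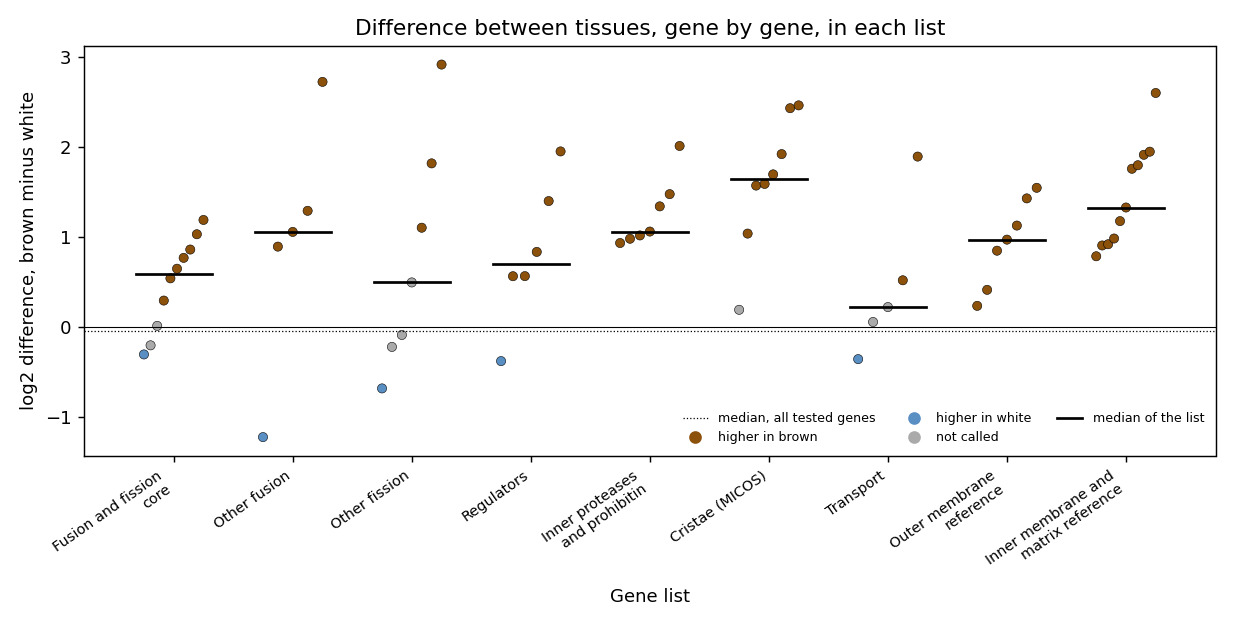
log2 difference between brown and white fat for each tested gene of the fusion and fission core, 6 lists of neighbouring genes and 2 mitochondrial reference lists; lines mark list medians and the dotted line the median of all tested genes (-0.04). The core has a median of 0.60, against 1.65 for the MICOS list and 1.33 for the inner membrane and matrix reference.

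Genes used as markers of other cell types also differ between these samples. The summed signal of 6 macrophage genes, all called higher in white, was 2211 to 2699 in brown and 15516 to 16345 in white. That of 5 mesothelial genes was 86.6 to 141 against 2794 to 2879, and all 5 were absent on every brown array. Endothelial genes summed to 1621 to 1843 against 2340 to 2451 (3 of 5 higher in white). The 3 tested Schwann cell genes summed to 875 to 960 in brown against 203 to 215 in white (2 of 3 higher in brown). On average S100b, the brightest of them in brown, had 567 against 22.3 and Mbp 202 against 83.9, while Sox10 (134 against 101) was not called. Of 6 skeletal muscle genes 2 were tested and summed to 943 to 1198 against 437 to 545. Myl1 was higher in brown, while Acta1, at 81.6 against 180 on average, had a difference of -2.51 that was not called. That size leans on brown replicate 3, at 2.16 where the other brown arrays had 97.7 and 145. Acta1 was called present on only 1 brown array. Myh1, Myh2, Myh4 and Ckm did not pass the filter. The part of such cells in the differences of the fusion and fission genes was not tested.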

How the data were processed

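The members and lists were chosen with earlier results of these data known. Per the file headers, the deposited array files give for each probe set a signal intensity, a present or absent call and a detection p-value; the software and its scaling are not stated in the labels or headers. A further table of linear intensity was deposited for the whole series (column medians 64.3, 62.9 and 63.8 as labelled brown, 56.7, 56.8 and 55.9 as labelled white), whose scaling and centring are unknown and whose direction is opposite; it served only as an alternative.

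Symbols came from the platform annotation: of 45037 probe sets without the 64 controls, 34945 had 1 gene, 932 several and 9160 none. Trimmed means (2% at each end) spread by 37.2% between arrays, above the 10% allowed, so log2 signals (floor 0.1) were quantile-normalised. Probe sets present on at least 3 of 6 arrays entered the test by limma (version 3.58.1, R version 4.3.3; linear fit and eBayes with trend; Benjamini-Hochberg over 19819 probe sets, or over 10264 genes by the probe set with the highest mean log2 signal). The fit was tested on simulated data. Folds of genes absent on every array of 1 tissue are estimates set against signals called absent.

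The series' design text gives 3 mice and biological replicates; it does not say that a replicate number marks a mouse, and no block was used in the reported fit. All members were named with every probe set. Of each other list the text names up to 4 called genes in the main direction, up to 2 in the other and up to 2 not called. Phb1 has no probe set of its own in the annotation, and Usp30 and Afg3l1 did not pass the filter. The number of arrays limits the precision.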

Additional observations from a re-analysis of the deposited data

How the results depend on the processing

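The count of genes higher in brown (7) fell to 4 with the deposited scaling and 3 with spike-in scaling, and that of probe sets (14) to 6 and 5; genes higher in white (1) became 3 and 3, and probe sets (2) became 5 and 4. With those 2 scalings Dnm1l had -0.091 and -0.10 and Fis1 -0.43 and -0.44, and all tested probe sets split into 2535 higher in brown and 10785 in white, or 2278 and 10340. Genes higher in white fell to 0 with no detection filter, no trend, the replicate block or the mean over probe sets, and probe sets to 1 with no filter, with presence on all 6 arrays, with no trend or with the replicate block; the replicate block ended the call of Yme1l1 (adjusted p = 0.0524) and moved no other of these counts by over 1.5 times. Same-numbered arrays deviated together at r = 0.017, -0.014 and -0.046, which gives no sign that the numbers pair them. Other pathway genes higher in white (4) were 7 with spike-in scaling and 2 with no filter. Leaving out 1 array gave 0 to 2 probe sets and 0 to 1 genes higher in white, 2 to 4 other pathway genes higher in white, and Fis1 from -0.077 to 0.096. The series table as labelled gave 4 probe sets and 2 genes (Oma1 and Yme1l1) with higher brown values, against 16 and 8 with higher white values, and for the other pathway genes 3 against 29, where 7303 and 5971 of all tested probe sets and 3819 and 3411 of all tested genes were called. There Mfn1 had -1.03, Mfn2 -0.66, Opa1 -1.24, Dnm1l -0.74, Fis1 -0.20, Mff -0.82, Mief1 -0.66, Oma1 0.31, Yme1l1 0.24 and Mtfr1 -0.40, and the ratios Mff to Fis1 -0.62 and Dnm1l to Opa1 0.50. Among ratios, the mean over probe sets turned Mfn2 to Mfn1 (-0.24), Oma1 to Yme1l1 (-0.046) and Opa1 to Mfn2 (0.29). Mff to Mief1 became 0.15 with deposited, median, spike-in or present-set centring (the last chosen after seeing the data), 0.031 with 64 units added and 0.17 without the _s_at and _x_at probe sets, where Mfn2 to Mfn1 was -0.64. The cause was not tested.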
